A study of Mus musculus with 6 samples.

Results

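Cells read oxygen through the hypoxia-inducible factors (HIFs), and 10 genes of that system were followed among the 56748 genes measured in newborn mouse hearts. They were chosen by name. Hif3a was included because it was higher in knockout hearts in these same data, so its values are a description and carry no test. The other 9 were listed by their role: the alpha subunits Hif1a and Epas1, the beta subunit Arnt, the hydroxylases Egln1, Egln3 and Hif1an, the ubiquitin ligase subunit Vhl, and the target genes Vegfa and Ankrd37. All 10 had a mean of at least 1 FPKM (fragments per kilobase of gene length, scaled for library size) over the 6 libraries, the minimum for testing, so none dropped out.

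A HIF is a dimer of an oxygen-regulated alpha subunit and the stable beta subunit Arnt. When oxygen is present, the EGLN prolyl hydroxylases mark the alpha subunit, Vhl binds the mark, and the protein is degraded. Hif1an hydroxylates an asparagine of the alpha subunit and thereby blocks its coactivators. When oxygen is scarce, the dimer accumulates and binds DNA at hypoxia response elements near genes of glucose use, red cell formation and vessel growth. Much of this control acts on the protein, which transcript levels do not measure. Hif3a makes several splice forms, and one of them in the mouse, inhibitory PAS protein, binds other alpha subunits and limits their activity.

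Hearts at postnatal day 1 gave 3 libraries from cKO mice, with a cardiac-specific knockout of the histone demethylase gene Kdm5b, and 3 from Kdm5b FF (Flox) mice, the controls. No source used here names the Cre driver or the exons removed. The labels do not say whether each library came from its own animal, so p-values measure the spread between libraries. The libraries held between 15658893 and 20339926 reads. Kdm5b was read at 2.80, 3.03 and 2.75 FPKM in cKO hearts, against 3.19, 3.25 and 3.92 FPKM in FF hearts, a value for the whole gene that can include exons outside the deleted part and cells that keep the gene. Cardiomyocyte markers summed to between 15407 and 17563 FPKM in cKO hearts and between 15265 and 17175 FPKM in FF hearts.

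One control library, FF replicate 3, differed from the rest. Across genes it correlated with the other libraries at 0.880 to 0.909, and those 5 correlated among themselves at 0.954 to 0.984. All 12 listed thymocyte markers were higher in it than in any other library, with a summed level of 328 FPKM against 1.34 to 2.33 FPKM elsewhere. It lay outside the range of the other 5 for 6 of the 10 oxygen sensing genes and for 67.9% of all genes tested. Differences of the members are therefore given with and without it. The part of the thymocyte transcripts in each value was not tested. With 6 libraries 21 genes passed, 9 higher and 12 lower in cKO hearts. Other scalings gave 30 higher and 18 lower (total reads), 33 and 17 (outside mitochondrial and haemoglobin genes) or 31 and 28 (quantile normalization). Median-ratio scaling gave 9 higher and 9 lower.

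Hif3a, the third alpha subunit, was the member that differed most between cKO and FF hearts. It was read at 11.7, 14.3 and 11.2 FPKM in cKO hearts, against 1.49, 2.49 and 3.39 FPKM in FF hearts. Every cKO library was above every FF library, with a wide gap between the groups. The means were 12.4 ± 1.63 FPKM in cKO hearts and 2.46 ± 0.947 FPKM in FF hearts (SD, n = 3 each), a ratio of 5.05, or 6.23 without FF replicate 3. On the log2(FPKM + 1) scale, where the change of low genes is understated, the difference was 1.99 with 6 libraries and 2.18 without FF replicate 3. These values rest on 1557, 1891 and 1631 reads in cKO hearts and on 171, 267 and 435 reads in FF hearts. Counting error alone gives 10.7 to 11.8 FPKM for the lowest cKO library and 3.08 to 3.72 FPKM for the highest FF library (95% exact Poisson intervals). Hif3a (ENSMUSG00000004328) lies on the minus strand of chromosome 7, from 16765432 to 16796352 in the deposited coordinates. The gene 4833404L02Rik, of unclassified type, overlaps it on the other strand, with 9, 6 and 1 reads in cKO hearts and 0 reads in each FF heart. The strand setting of the counting is not stated, so those few reads cannot be assigned to either strand.

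**Figure D1:**
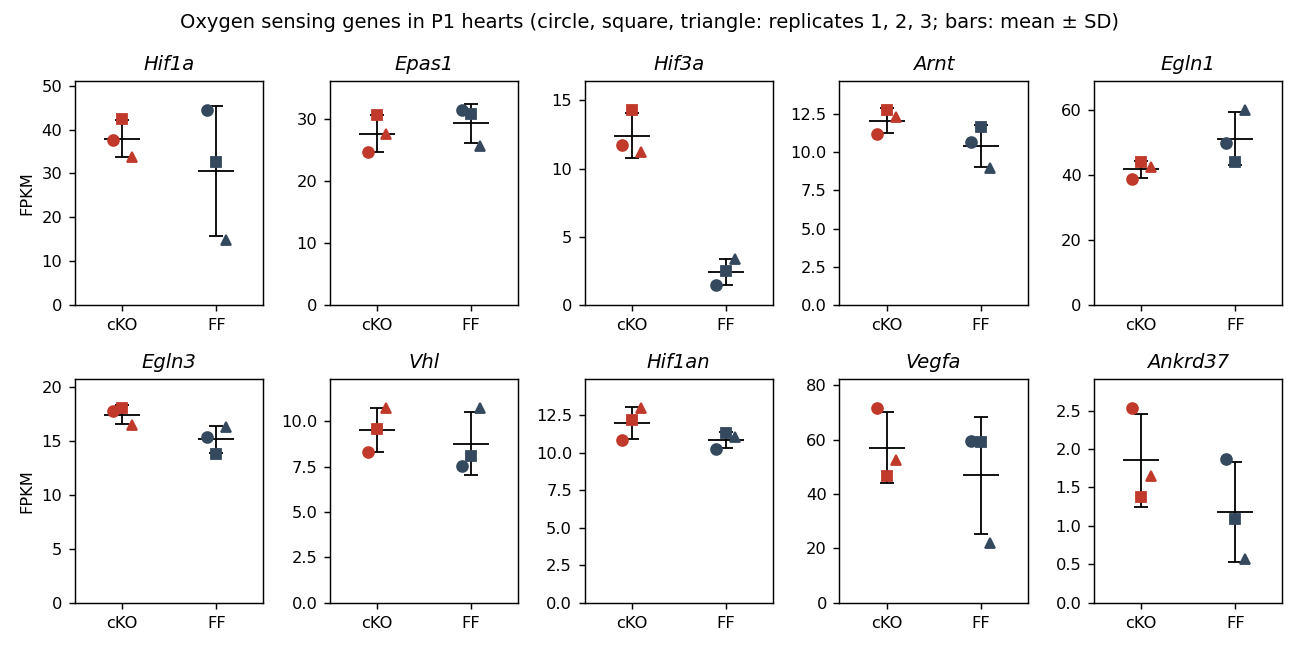
FPKM of the 10 oxygen sensing genes in each heart, with cKO left of FF and a linear axis from 0 for each gene. Symbols are libraries (circle, square and triangle for replicates 1, 2 and 3), horizontal lines are means and bars are SDs (n = 3 each). The Hif3a libraries sit at 11.2 to 14.3 FPKM in cKO hearts and at 1.49 to 3.39 FPKM in FF hearts, while FF replicate 3 is the low point for Hif1a, Vegfa and Ankrd37.

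The DNA just before the start of these genes was read for the core of the hypoxia response element, ACGTG or GCGTG, on both strands of the 250 bases before each RefSeq start (GRCm38.p6). Matches that overlap, such as both strands of CACGTG, were counted as 1 site. A promoter was held for 9 of the 10 genes, Epas1 being the one without, and Vegfa had 2. Of these 10 promoters 7 held a site, against 38.6% of all 32851 promoters in the table. Promoters of the members were also richer in G and C, with a median of 60.8% against 52.4% over all promoters, and the part of base composition in the share was not tested. Among promoters of the lists described later, 78.1% of those of metabolic targets, 70.6% of survival, matrix and feedback targets, 60% of pathway partners and 50% of vascular genes held a site. The promoters below show the gene that differed between the groups (Hif3a), the target with the most sites (Ankrd37) and the best-known alpha subunit (Hif1a). Capitals mark the matches, and each sequence is the 250 bases before the start, read 5′ to 3′ on the strand of the gene.
Hif3a, chr7:17062428-17062677, minus strand: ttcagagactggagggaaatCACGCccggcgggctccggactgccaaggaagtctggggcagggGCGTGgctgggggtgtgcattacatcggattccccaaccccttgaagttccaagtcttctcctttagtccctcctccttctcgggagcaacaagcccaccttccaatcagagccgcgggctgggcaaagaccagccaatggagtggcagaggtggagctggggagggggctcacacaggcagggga
Ankrd37, chr8:45999851-46000100, minus strand: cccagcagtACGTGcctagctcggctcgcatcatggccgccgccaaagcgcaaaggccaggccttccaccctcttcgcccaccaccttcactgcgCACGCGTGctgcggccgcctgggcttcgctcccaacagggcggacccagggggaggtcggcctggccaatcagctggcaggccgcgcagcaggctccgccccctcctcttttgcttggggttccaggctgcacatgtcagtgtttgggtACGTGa
Hif1a, chr12:73907617-73907866, plus strand: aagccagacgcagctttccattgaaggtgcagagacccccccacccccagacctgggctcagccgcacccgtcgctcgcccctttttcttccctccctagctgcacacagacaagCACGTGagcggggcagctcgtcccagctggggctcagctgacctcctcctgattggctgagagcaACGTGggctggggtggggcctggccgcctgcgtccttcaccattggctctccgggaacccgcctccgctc
Hif3a held 2 sites, which begin 230 and 186 bases before the start and are both of the GCGTG form. Ankrd37 held 3 sites, one of them 6 bases before the start, and only 4.65% of all promoters held as many. Hif1a held 2 sites, the first of which is CACGTG. No site was found before Vhl, Hif1an or the first Vegfa start, which says only that these letters are absent from those windows.

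The other 2 alpha subunits were more abundant than Hif3a in every library and did not follow it. Hif1a, the alpha subunit that drives glycolytic genes in low oxygen (chromosome 12, 73948149 to 73994304, plus strand), was read at 37.6, 42.4 and 33.9 FPKM in cKO hearts, against 44.4, 32.5 and 14.9 FPKM in FF hearts. The cKO libraries lay inside the FF range, and the low FF value was replicate 3. The log2 difference was 0.43 (95% interval -0.46 to 1.31), with an adjusted p = 0.597 in limma, and without FF replicate 3 it was -0.01 (95% interval -0.39 to 0.37). Epas1, or HIF-2 alpha, which is prominent in endothelial cells (chromosome 17, 87061128 to 87140838, plus strand), was read at 24.7, 30.7 and 27.5 FPKM in cKO hearts and at 31.4, 30.8 and 25.7 FPKM in FF hearts. Its groups overlapped, with a log2 difference of -0.08 (limma adjusted p = 0.807). Without FF replicate 3 the Epas1 difference was -0.17 (95% interval -0.43 to 0.09), and the cKO libraries then all lay below the FF libraries, by a margin of 30.7 against 30.8 FPKM. In whole hearts, fewer cells of a type and less RNA per cell cannot be told apart.

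Shares of the alpha subunit transcripts were read with Hif3a included, which was chosen for its difference. Its larger share in cKO hearts follows from that choice. Hif3a made up 15.9%, 16.3% and 15.4% of the summed FPKM of the alpha subunits in cKO hearts, against 1.93%, 3.78% and 7.71% in FF hearts. Epas1 made up 33.4%, 35.1% and 37.9% in cKO hearts, against 40.6%, 46.8% and 58.5% in FF hearts. Neither share overlapped between the groups, while that of Hif1a did, at 46.7% to 50.8% in cKO hearts and 33.8% to 57.4% in FF hearts. The shares add up to 100% in a library, so a higher share of Hif3a lowers the others, and they do not depend on how libraries were scaled. The gap in the Epas1 share is therefore not separate from the Hif3a difference. Hif1a was 3.20, 2.97 and 3.02 times as abundant as Hif3a in cKO hearts and 29.7, 13.1 and 4.39 times in FF hearts. Among FF hearts, Hif3a was highest and Hif1a lowest in replicate 3. The ratio of Hif1a to Epas1, which leaves Hif3a out, overlapped between the groups. It was 1.52, 1.38 and 1.23 in cKO hearts and 1.41, 1.05 and 0.579 in FF hearts. The means of that ratio were 1.38 ± 0.146 in cKO hearts and 1.02 ± 0.419 in FF hearts (SD, n = 3 each). Its exact two-sided permutation p was 0.3, also after adjustment over the 2 ratios tested.

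**Figure D2:**
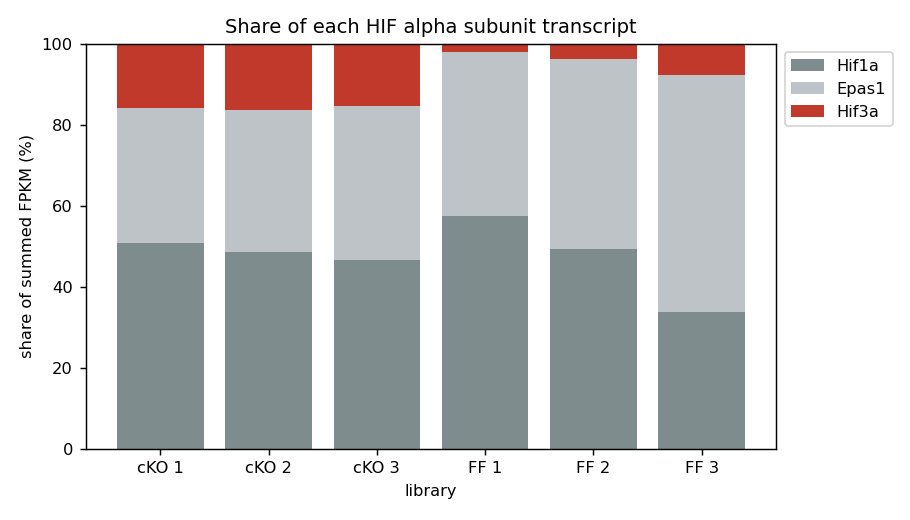
Share of each alpha subunit in the summed FPKM of Hif1a, Epas1 and Hif3a, as stacked bars from 0 to 100% for each library, cKO left of FF. Hif3a takes 15.4% to 16.3% in cKO hearts and 1.93% to 7.71% in FF hearts, where replicate 3 has the highest share of the FF libraries and the lowest share of Hif1a.

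Arnt, the shared beta subunit (chromosome 3, 95341699 to 95404551, plus strand), ran from 8.95 to 12.7 FPKM across the libraries. It was read at 11.2, 12.7 and 12.3 FPKM in cKO hearts, against 10.6, 11.6 and 8.95 FPKM in FF hearts. Its groups overlapped, and its log2 difference was 0.20 (95% interval -0.12 to 0.52; limma adjusted p = 0.489). Its difference was 0.11 without FF replicate 3, the lowest library for Arnt (limma adjusted p = 0.478). In cKO hearts Hif3a was about as abundant as Arnt, with Arnt at 0.952, 0.893 and 1.10 times Hif3a. In FF hearts Arnt was 7.12, 4.68 and 2.64 times as abundant as Hif3a.

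Of the 3 hydroxylases, Egln1 and Hif1an overlapped between the groups, and Egln3 did not. Egln1 (PHD2), the main prolyl hydroxylase at normal oxygen (chromosome 8, 125635326 to 125676063, minus strand), was read at 38.8, 43.9 and 42.3 FPKM in cKO hearts and at 49.8, 43.8 and 59.8 FPKM in FF hearts. Its highest cKO value and its lowest FF value were almost equal, and the log2 difference was -0.28 (limma adjusted p = 0.384). FF replicate 3 was the highest of the 6 libraries for Egln1, and without it the difference was -0.16 (limma adjusted p = 0.298). Egln3 (PHD3), a prolyl hydroxylase that is itself a HIF target (chromosome 12, 54225767 to 54250646, minus strand), was read at 17.8, 18.0 and 16.4 FPKM in cKO hearts and at 15.3, 13.7 and 16.3 FPKM in FF hearts. All cKO libraries lay above all FF libraries, though the closest values were 16.4 and 16.3 FPKM. The Egln3 log2 difference was 0.19 (95% interval -0.09 to 0.48; limma adjusted p = 0.446), and 0.25 without FF replicate 3 (95% interval 0.02 to 0.47; limma adjusted p = 0.120). Set against each other inside a library, Egln1 was 2.40 ± 0.200 times Egln3 in cKO hearts and 3.37 ± 0.262 times in FF hearts (SD, n = 3 each). The exact two-sided permutation p of that ratio was 0.1, the smallest that this design allows, and 0.2 after Benjamini-Hochberg adjustment over the 2 ratios tested. Hif1an (FIH), the asparaginyl hydroxylase (chromosome 19, 44551289 to 44564713, plus strand), was read at 10.8, 12.2 and 13.0 FPKM in cKO hearts and at 10.3, 11.3 and 11.1 FPKM in FF hearts. Its log2 difference was 0.13 (95% interval -0.16 to 0.41; limma adjusted p = 0.621), and 0.14 without FF replicate 3 (limma adjusted p = 0.394).

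Vhl, the substrate-binding subunit of the ligase that removes hydroxylated alpha subunits (chromosome 6, 113600920 to 113608594, plus strand), was read at 8.28, 9.54 and 10.7 FPKM in cKO hearts. In FF hearts it was read at 7.52, 8.05 and 10.7 FPKM, with replicate 3 again the library that made the groups overlap. Its log2 difference was 0.11 with 6 libraries (limma adjusted p = 0.765) and 0.25 without FF replicate 3 (95% interval -0.04 to 0.54; limma adjusted p = 0.195).

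The 2 target genes spread widely inside each group. Vegfa, the growth factor that draws new vessels to poorly oxygenated tissue (chromosome 17, 46327919 to 46343295, minus strand), was read at 71.6, 46.7 and 52.4 FPKM in cKO hearts, against 59.3, 59.3 and 22.0 FPKM in FF hearts. The FF values of replicates 1 and 2 lay inside the cKO range. The log2 difference was 0.38 (95% interval -0.57 to 1.33; limma adjusted p = 0.663), and it turned to -0.08 without FF replicate 3. Ankrd37, an ankyrin repeat gene induced by HIF (chromosome 8, 46449939 to 46458744, minus strand), was the least abundant member in all but one library, at 2.53, 1.38 and 1.65 FPKM in cKO hearts and 1.86, 1.10 and 0.577 FPKM in FF hearts. These rest on 77, 42 and 55 reads in cKO hearts and 49, 27 and 17 reads in FF hearts, and counting error alone spans 2.00 to 3.17 FPKM for the highest cKO library and 0.336 to 0.924 FPKM for the lowest FF library. The groups overlapped (log2 difference 0.41, 95% interval -0.22 to 1.04; limma adjusted p = 0.473). The difference was 0.20 without FF replicate 3, its lowest library (95% interval -0.32 to 0.72; limma adjusted p = 0.553). Ankrd37 shares 6405 bases with Lrp2bp on the other strand, which had 20 to 40 reads in cKO hearts and 27 to 33 reads in FF hearts. It also shares 57 bases with Ufsp2 on the other strand. Ufsp2 had 573, 578 and 628 reads in cKO hearts and 527, 403 and 356 reads in FF hearts.

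The 9 members listed by role did not pass the threshold of an adjusted p under 0.05 in limma. The count was 0 of 9 with 6 libraries, where 0.166% of the 12678 genes tested passed, and 0 of 9 without FF replicate 3, where 12.0% passed. At an unadjusted p under 0.05 the counts were 0 of 9 with 6 libraries, against 17.9% of all genes tested, and 1 of 9 (Egln3) without FF replicate 3, against 33.5% of all genes tested. The groups did not overlap for 1 of the 9 members (Egln3), against 28.0% of all genes tested. Without FF replicate 3 they did not overlap for 3 of the 9 (Epas1, Egln3 and Vhl), against 52.0% of all genes tested. The differences ran from -0.28 to 0.43 with 6 libraries and from -0.17 to 0.25 without FF replicate 3. A p that misses the threshold does not show that these genes were equal, and with 6 libraries the intervals for Hif1a, Vegfa and Ankrd37 reach past a log2 difference of 1. Their upper limits were 0.37, 0.35 and 0.72 without FF replicate 3.

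**Figure D3:**
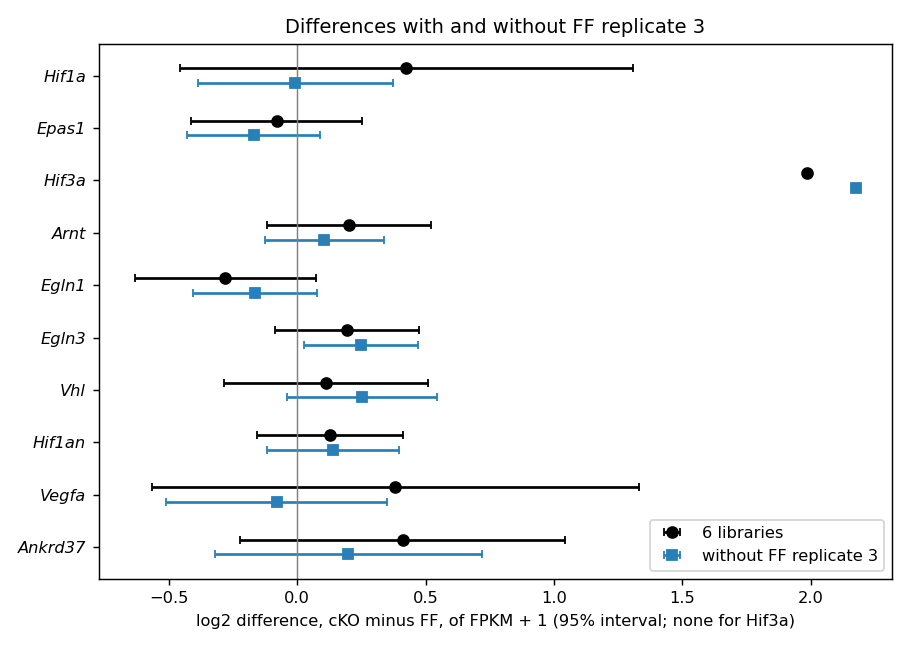
Log2 difference of FPKM + 1, cKO minus FF, for each member, with 95% intervals from limma for all but Hif3a, which was chosen for its difference. Black circles use 6 libraries and blue squares leave out FF replicate 3. Hif3a is at 1.99 and 2.18, while the other members lie between -0.28 and 0.43 with 6 libraries and close in on 0 for Hif1a and Vegfa without FF replicate 3.

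The same 5 genes (Vegfa, Egln1, Hif1a, Epas1 and Egln3) had the highest levels in both groups, and the place of Hif3a below them differed. By mean FPKM the order in cKO hearts was Vegfa (56.9 ± 13.0), Egln1 (41.7 ± 2.63), Hif1a (38.0 ± 4.27), Epas1 (27.6 ± 2.97), Egln3 (17.4 ± 0.857), Hif3a (12.4 ± 1.63), Arnt (12.1 ± 0.794), Hif1an (12.0 ± 1.09), Vhl (9.51 ± 1.22) and Ankrd37 (1.85 ± 0.604). Hif3a, Arnt and Hif1an lay within their SDs of each other, as did Egln1 and Hif1a. In FF hearts the order was Egln1 (51.2 ± 8.09), Vegfa (46.9 ± 21.5), Hif1a (30.6 ± 14.9), Epas1 (29.3 ± 3.14), Egln3 (15.1 ± 1.28), Hif1an (10.9 ± 0.544), Arnt (10.4 ± 1.36), Vhl (8.77 ± 1.71), Hif3a (2.46 ± 0.947) and Ankrd37 (1.18 ± 0.648; SD, n = 3 each). Neighbours among the first 4 of these, and Arnt with either Hif1an or Vhl, were not apart by more than their SDs. Hif3a ranked sixth in cKO replicates 1 and 2 and eighth in cKO replicate 3, and it ranked ninth or last in the FF hearts.

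Among 11149 other protein-coding genes tested, the 5 whose profiles over the 6 libraries were closest to Hif3a were Klhl38, Pik3ip1, Ppp1r3c, Flcn and Sult1a1. Closeness was the root mean square difference of the log2(FPKM + 1) values, each gene centred on its own mean, and it was 0.174, 0.227, 0.303, 0.355 and 0.405 in that order. Klhl38, a kelch-like gene, was read at 6.66, 6.22 and 4.81 FPKM in cKO hearts and at 0.424, 0.537 and 0.945 FPKM in FF hearts. Pik3ip1, an inhibitor of PI3 kinase, was read at 17.0, 25.4 and 16.4 FPKM in cKO hearts and at 4.61, 4.41 and 6.53 FPKM in FF hearts. Both were well separated between the groups. Ppp1r3c, which targets a phosphatase to glycogen, was read at 38.5, 26.3 and 36.1 FPKM in cKO hearts and at 6.75, 7.43 and 13.1 FPKM in FF hearts. Flcn, which codes for folliculin, a regulator of mTORC1 signalling, was read at 28.8, 27.0 and 24.9 FPKM in cKO hearts and at 8.02, 9.29 and 7.18 FPKM in FF hearts. Sult1a1, a sulfotransferase, was read at 18.4, 20.3 and 15.8 FPKM in cKO hearts and at 6.14, 6.85 and 8.94 FPKM in FF hearts. In these 5 genes, as in Hif3a, every cKO library was above every FF library. Since the genes were picked for likeness to a gene that was itself picked for its difference, this follows from the choice.

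**Figure D4:**
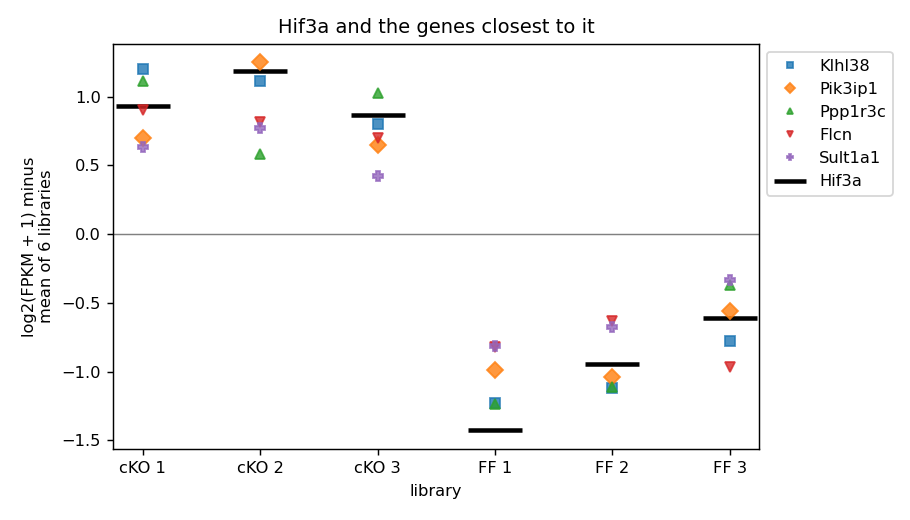
Log2(FPKM + 1) of Hif3a (black bars) and the 5 protein-coding genes closest to it, each minus its own mean over the 6 libraries, for cKO libraries on the left and FF libraries on the right. All 6 genes lie above 0 in cKO hearts and below 0 in FF hearts, and Klhl38, with a root mean square difference of 0.174, is the closest.

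Wider parts of the pathway were read from 4 lists of other genes, chosen with earlier results of these data known. In the list of HIF partners and regulators, 22 of 25 genes were tested, and 0 passed the threshold with 6 libraries (5 of 22 at an unadjusted p under 0.05, where 17.9% of all genes tested lay), with a median log2 difference of 0.02 against 0.01 for all genes tested. Without FF replicate 3, 2 were higher and 3 lower (22.7% of the list, against 12.0% of all genes tested), with a median of -0.05 against -0.01 for all genes. In that fit 5.73% of all genes tested were higher and 6.26% lower. The higher ones were Usp20, which codes for a deubiquitinase that acts on Hif1a protein, and Asb4. Usp20 was read at 9.93, 9.74 and 10.8 FPKM in cKO hearts and at 5.31, 6.50 and 5.83 FPKM in FF hearts, with no overlap (log2 difference 0.70; limma adjusted p = 0.0673, and 0.0207 without FF replicate 3). The lower ones without FF replicate 3 were Elob and Rbx1, subunits of the Vhl ligase, and Siah1a, a ligase for prolyl hydroxylases. Their log2 differences were -0.32, -0.45 and -0.60 without FF replicate 3, and -0.41, -0.25 and -0.28 with it. Ep300, the coactivator that Hif1an shuts out, had a log2 difference of 0.57 (limma adjusted p = 0.163), and of 0.43 without FF replicate 3 (limma adjusted p = 0.0708).

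Target genes of glucose and energy use did not pass the threshold when all libraries were used, though most of their differences were positive. The median log2 difference was 0.34 over the 22 of 25 genes tested, 16 of them positive, and 0 passed with 6 libraries (10 of 22 at an unadjusted p under 0.05, against 17.9% of all genes tested), where 0.0710% of all genes tested were higher and 0.0947% lower. Of all 12678 genes tested, 6424 had a positive difference with 6 libraries. Without FF replicate 3 the median was 0.47, with 8 genes higher and 1 lower, or 40.9% of the list against 12.0% of all genes tested. In that fit 5.73% of all genes tested were higher. This list too was chosen with earlier results of these data known, so the excess is not an independent test. The 8 higher genes were Ppp1r3c, Aldoc, Eno1, Hk1, Gys1, Pdk1, Slc2a1 and Gpi1, which serve glycogen storage, glycolysis, glucose uptake and the shutting of pyruvate dehydrogenase. Ppp1r3c was also among the 5 genes picked for likeness to Hif3a. Eno1, the enolase of glycolysis, was read at 91.7, 99.2 and 93.2 FPKM in cKO hearts and at 63.1, 55.8 and 64.6 FPKM in FF hearts, with no overlap (limma adjusted p = 0.0745, and 0.0175 without FF replicate 3). Pdk1, the kinase for that shutting step, was read at 37.6, 40.3 and 36.7 FPKM in cKO hearts and at 27.8, 24.5 and 19.7 FPKM in FF hearts (limma adjusted p = 0.103, and 0.0255 without FF replicate 3). Slc2a1 was not separated with 6 libraries, at 9.33, 9.71 and 10.5 FPKM in cKO hearts and 7.08, 5.23 and 10.4 FPKM in FF hearts. The gene that was lower without FF replicate 3, Higd1a, a mitochondrial survival protein, was read at 15.1, 12.8 and 12.2 FPKM in cKO hearts and at 21.3, 22.7 and 11.6 FPKM in FF hearts. Cox4i2, a cytochrome oxidase subunit used in low oxygen, was read at 6.88, 5.33 and 4.38 FPKM in cKO hearts and at 8.70, 9.44 and 9.48 FPKM in FF hearts (limma adjusted p = 0.115, and 0.0548 without FF replicate 3). Pfkl was lower in every cKO library, at 12.8, 16.05 and 12.7 FPKM in cKO hearts and 19.0, 17.4 and 16.13 FPKM in FF hearts. The Pfkl log2 difference was -0.32 (limma adjusted p = 0.290), and -0.38 without FF replicate 3 (limma adjusted p = 0.0915). Car9, a classic HIF target, was below the minimum for testing, as were Car12 and Pfkfb4.

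Target genes of survival, matrix and feedback had a median log2 difference of 0.21 over 31 of 32 genes tested, with 25 positive and 0 past the threshold. At an unadjusted p under 0.05 there were 7 of 31, against 17.9% of all genes tested, and 6424 of the 12678 genes tested had a positive difference. Without FF replicate 3 the median was 0.15, and 5 genes were higher and 0 lower (Mif, Mxi1, Kdm3a, Stc2 and Ndrg2). That is 16.1% of the list, against 12.0% of all genes tested in both directions and 5.73% higher in cKO hearts. The list was chosen with earlier results of these data known. Kdm3a, a histone demethylase induced by HIF, was read at 10.9, 10.9 and 9.72 FPKM in cKO hearts and at 6.85, 7.01 and 5.32 FPKM in FF hearts (limma adjusted p = 0.0932, and 0.0240 without FF replicate 3). Mif, a cytokine gene, was read at 130, 130 and 119 FPKM in cKO hearts and at 81.5, 66.1 and 90.7 FPKM in FF hearts (limma adjusted p = 0.0978, and 0.0190 without FF replicate 3). The collagen prolyl hydroxylases P4ha1 and P4ha2 had log2 differences of -0.39 and -0.22 (limma adjusted p = 0.226 and 0.367), and of -0.27 and -0.19 without FF replicate 3 (limma adjusted p = 0.0986 and 0.231). Wsb1 had a log2 difference of 0.09 (limma adjusted p = 0.905), and of -0.28 without FF replicate 3 (limma adjusted p = 0.107). Eno1 and Mif have near-identical processed copies in the mouse genome, and how the counting split reads among them is uncertain. Gapdh was read at 24.2, 51.4 and 2.97 FPKM in cKO hearts and at 19.8, 2.92 and 34.3 FPKM in FF hearts. It counts among the 16 positive differences of the metabolic list and in both medians there. The cause of its scatter was not tested.

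Of the 24 vascular ligands and receptors tested, 1 passed with 6 libraries (4.17%, against 0.166% of all genes tested). The list was chosen with earlier results of these data known. Apln, the apelin peptide and a HIF target in endothelium, fell to 5.63, 7.86 and 5.82 FPKM in cKO hearts, against 20.5, 20.1 and 21.4 FPKM in FF hearts (log2 difference -1.55; limma adjusted p = 0.0338). No gene of any list passed when 1 of the other 5 libraries was left out in place of FF replicate 3. Of the 8 endothelial markers, Cldn5 and Kdr were also lower in every cKO library, and the marker list had a median log2 difference of -0.26. Cldn5 was at 22.4, 27.3 and 24.2 FPKM in cKO hearts against 42.2, 58.4 and 57.3 FPKM in FF hearts. The closest Kdr values were 27.0 FPKM in cKO hearts and 27.4 FPKM in FF hearts. The other markers overlapped. Among them Tie1 had a log2 difference of 0.06, and Eng was at 58.4, 69.1 and 67.6 FPKM in cKO hearts and 45.5, 47.3 and 107 FPKM in FF hearts. The part of these markers in the Apln difference was not tested. The list median was -0.04 with 6 libraries and -0.00046 without FF replicate 3, where 1 gene was higher (Cxcl12) and 2 were lower (Apln and Nrp2). These are 12.5% of the list, against 12.0% of all genes tested, a share at the background. Nrp2, a coreceptor for vascular growth factors, was read at 6.20, 6.68 and 6.65 FPKM in cKO hearts and at 9.43, 9.94 and 10.6 FPKM in FF hearts (limma adjusted p = 0.0797, and 0.0242 without FF replicate 3). Vegfb and Vegfd, relatives of Vegfa, had log2 differences of 0.04 and -0.74 with 6 libraries (limma adjusted p = 0.936 and 0.209), and of 0.29 and -0.47 without FF replicate 3 (limma adjusted p = 0.125 and 0.0785). Cxcr4 had 11.0 FPKM in FF replicate 3, the library with thymocyte transcripts, against 1.75 to 5.46 FPKM in the other libraries.

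**Figure D5:**
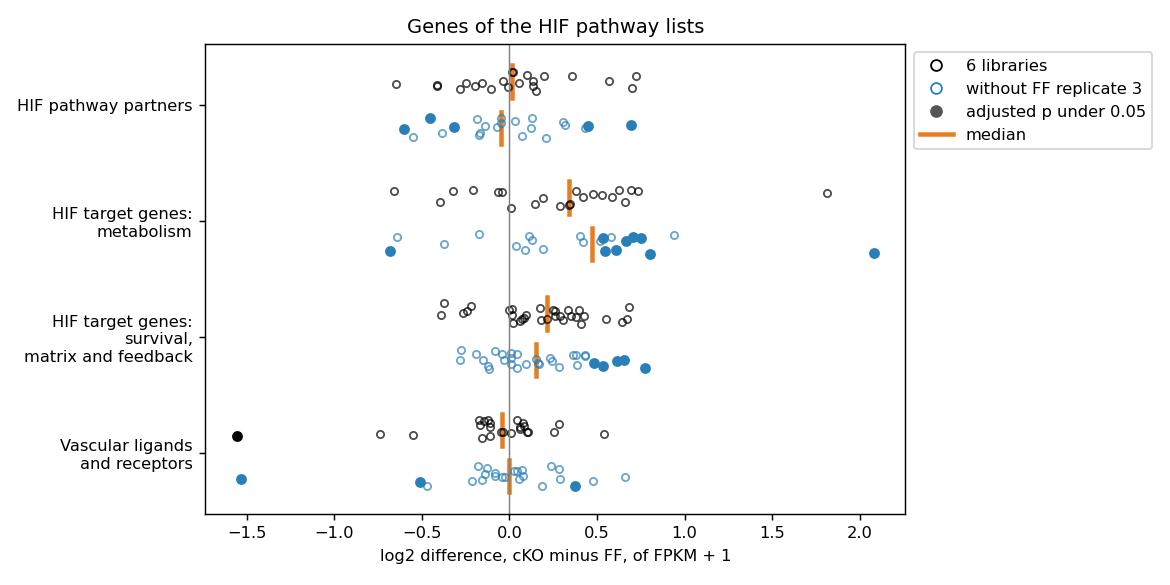
Log2 difference of FPKM + 1, cKO minus FF, for each tested gene of the 4 lists. Black circles use 6 libraries, blue circles leave out FF replicate 3, filled circles have an adjusted p under 0.05 and orange lines are medians. Apln at -1.55 is the single filled black circle, and the metabolic targets have medians of 0.34 and 0.47.

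Summed levels of cell type markers overlapped between the groups for all 10 marker lists with 6 libraries, but single markers did not always. Of the 61 markers tested 19 did not overlap (31.1%, against 28.0% of all genes tested), 7 of them higher and 12 lower in cKO hearts. They included 2 of 8 endothelial, 4 of 8 fibroblast, 4 of 8 macrophage and 4 of 9 cardiomyocyte markers. Among fibroblast markers Dcn was read at 37.9, 47.4 and 41.8 FPKM in cKO hearts and at 63.8, 70.9 and 81.0 FPKM in FF hearts, while Tcf21 was read at 9.40, 11.5 and 10.1 FPKM in cKO hearts and at 6.06, 6.87 and 7.81 FPKM in FF hearts. Markers of 1 cell type thus lay on both sides, as did macrophage markers, where Lyve1 was higher and C1qa, C1qb and Adgre1 were lower in every cKO library. Endothelial markers summed to 282 to 354 FPKM in cKO hearts and 329 to 520 FPKM in FF hearts, and pericyte and smooth muscle markers to 483 to 591 FPKM in cKO hearts and 452 to 520 FPKM in FF hearts. The sums of 3 lists no longer overlapped without FF replicate 3. Pericyte and smooth muscle markers were then at 452 to 455 FPKM in FF hearts, brown adipocyte markers at 89.9 to 111 FPKM in cKO hearts against 152 to 156 FPKM in FF hearts, and skeletal muscle markers at 371 to 441 FPKM in cKO hearts against 261 to 284 FPKM in FF hearts. Ckm, which heart muscle also uses, made up most of the last sum, and Myod1 was at 0 in all libraries. Fabp4 and Cidea made up most of the brown adipocyte sum, while Lep was at 0 in all libraries. Ucp1, Adipoq, Plin1 and Elovl3 lay between 0 and 0.34 FPKM. Whether the sum follows brown adipocytes was not tested. Cidea passed with 6 libraries (log2 difference -1.25; limma adjusted p = 0.0338). The part of these markers in the differences above was not tested.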

How the data were processed

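Gene expression in 3 cKO and 3 FF hearts was deposited as FPKM, 1 value per gene and library. Per the submitters' processing notes, the tools were TopHat2 2.0.13, featureCounts (Subread), edgeR and FastQC; the genome builds listed there are mm10, GRCm39 and GRCh38, without roles. Annotation and strand setting are not stated. Of 52073 gene identifiers shared with GENCODE M21 (GRCm38), 1472 had the same start and end, so coordinates are printed as deposited and are not those of GRCm38 (mm10). Deposited FPKM times gene length was a whole multiple of 1 step per library (100% of values under 200 reads, within 0.1), which gave the reads. The authors' library size was 0.960 to 1.07 times the read total.

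Differences were fitted with limma 3.58.1 (R 4.3.3) on log2(FPKM + 1) with a term for genotype alone, a variance trend, a mean of at least 1 FPKM over the 6 libraries, and Benjamini-Hochberg adjustment over all 12678 genes. The steps were tested on simulated data. The within-library ratios of members used exact permutation tests. Poisson intervals cover counting error only. Members, lists and comparisons were chosen with earlier results of these data known. Named list genes were those past the threshold and up to 3 per direction in each list with the smallest p without FF replicate 3. Hk1, Gys1, Pdk1, Slc2a1, Gpi1, Stc2, Ndrg2, Car9, Car12 and Pfkfb4 were added after their values were seen. Where a symbol had 2 rows (Aldoa), the row with the higher level was used. Alternatives were other pseudocounts, filters, scalings, variance priors, library weights, a replicate block and leaving out each library. Promoters came from RefSeq.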

Additional observations from a re-analysis of the deposited data

How the results depend on the processing

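The Hif3a difference, for which the gene was chosen, stayed positive under all 17 alternatives. It ran from 1.77 to 2.35 on the log2 scale, the highest with a pseudocount of 0.1. These values are a description and carry no test. The count of 21 genes past the threshold moved to 11 with a pseudocount of 0.1, 0 with no filter (3210 at an unadjusted p under 0.05), 53 with a mean of at least 5 FPKM, 59 with quantile normalization, 48 when scaled to total reads, 50 when scaled outside mitochondrial and haemoglobin genes, 13 with a robust variance prior and 4300 with library weights. A pseudocount of 0.5 gave 14 and median-ratio scaling gave 18. Leaving out a library gave between 0 and 1520, the highest without FF replicate 3 and 0 without any other library (1268 to 2041 at an unadjusted p under 0.05). The members other than Hif3a past the threshold numbered 0 in each alternative but library weights, which gave 1 (Egln3, log2 difference 0.28, limma adjusted p = 0.0229). With library weights 4300 of the 12678 genes tested passed. The count of 1 list gene (Apln) moved to 0 with no filter, where 0 of 29654 genes tested passed. It moved to 2 with a mean of at least 5 FPKM (53 of 7000 genes tested) and 3 with quantile normalization (59 of 12678). With library weights it moved to 42 (4300 of 12678). It lay between 0 and 22 when a library was left out (0 to 1520 of 12678). Directions turned for Epas1 with quantile normalization (0.0216) and scaling outside mitochondrial and haemoglobin genes (0.0092), for Vegfa with library weights (-0.10) and without FF replicate 3 (-0.0808), and for Hif1a without FF replicate 3 (-0.0072). Their leave-one-out ranges were -0.01 to 0.75 for Hif1a and -0.08 to 0.61 for Vegfa. The cause was not tested. With the replicate number as a replicate block, 2 genes and 0 list genes passed. The labels do not say whether same-numbered libraries were paired. Deviations of same-numbered libraries from their group means correlated at 0.38, -0.24 and 0.24, and those of different numbers at -0.42 to 0.35. Such deviations sum to 0 within each group, so these correlations cannot decide whether the libraries were paired. The intervals of Hif1a and Vegfa were wider with FF replicate 3 than without it, and few reads limit Ankrd37.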
